A study of Mus musculus with 12 samples.

Results

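Abca1, Abcg1, Apoe, Scarb1, Nr1h2, Nr1h3 and Mylip carry out or regulate the removal of cholesterol from cells or its uptake. All 7 were found by their symbols among the 21936 genes of an eyelid expression table. Each symbol occurred once, and all 7 genes passed the filter on low values, which kept 13228 genes with more than 1 FPKM in at least 2 libraries. FPKM is the number of reads per kilobase of a gene's exons and per unit of sequencing depth, so it allows levels to be set side by side between genes. The animals were male C57BL/6 mice, 6 to 8 weeks old at the start and kept with 12 h of light per day. High-fat mice ate chow with 60 kcal% fat (HF), and control mice ate chow with 10 kcal% fat (CTL). Tissue was taken at 9h, 15h or 21h, and each of the 6 combinations of diet and time has 2 libraries. The labels give 3 months of diet and the series text gives 4 months, a difference that was not resolved. Libraries keep the number of their label, such as HF 9h library 6. Neither the labels nor the series text says how many mice went into a library, so the p-values reflect variation among the libraries, which may be technical.

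Meibomian gland is the tissue given in the labels, while according to the series text eyelids were taken whole. All 8 markers of meibocytes, the lipid-filled cells of that gland, were above 1 FPKM in all 12 libraries, with Elovl4 highest at a mean of 1387 FPKM. Markers of keratinocytes, skeletal muscle, conjunctiva and fibroblasts were also above 1 FPKM in every library. In such tissue, fewer cells of a type and less RNA per cell cannot be told apart. Depth, recovered from the values, was 14096362 to 17889158 reads per library.

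Liver X receptors (LXRs) are nuclear receptors that sense oxysterols, the oxidised forms of cholesterol. With their partner, the retinoid X receptor, they turn on genes that move cholesterol out of cells: the transporters Abca1 and Abcg1 and the acceptor protein Apoe. They also turn on Mylip, which removes the LDL receptor and so limits cholesterol uptake. Scarb1 takes cholesterol esters from high-density lipoprotein and lets free cholesterol pass between that particle and the cell. Meibocytes and related sebaceous cells make large amounts of wax and cholesterol esters as their secretion, and macrophages are the cells in which LXR-driven efflux is best known.

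The 7 genes spanned a wide range of levels. Apoe, at a mean of 1112 FPKM over the 12 libraries, ranked 24 among all genes and was 38.3 times the next, Nr1h2. Below Nr1h2 at 29.0 FPKM came Mylip at 23.3, Scarb1 at 21.2, Abca1 at 18.5, Abcg1 at 9.75 and Nr1h3 at 4.13 FPKM. Abca1 was above Abcg1, and Abcg1 above Nr1h3, in 12 of 12 libraries. The order in the middle was less firm, since Mylip exceeded Scarb1 in 9 of 12 libraries and Scarb1 exceeded Abca1 in 8 of 12. The highest library stood above the lowest by a factor of 1.24 for Nr1h2 and 1.38 for Apoe, against 2.04 for Nr1h3, 1.85 for Mylip and 1.75 for Abca1.

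**Figure D1:**
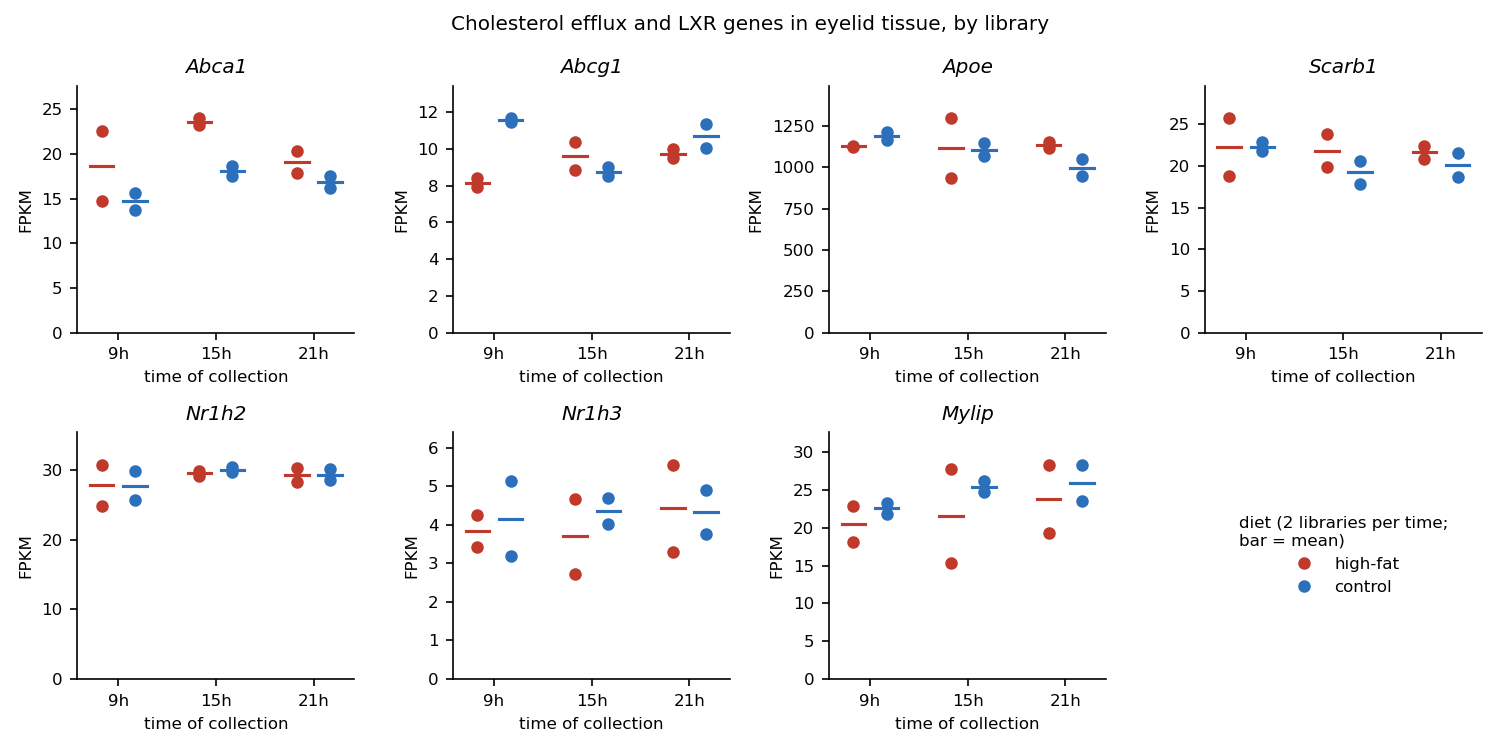
Level of each of the 7 genes in FPKM (y axis, from 0) at each time of collection (x axis), with high-fat libraries in red left of control libraries in blue; points are single libraries and bars are means of 2. Abca1 points of high-fat mice lie above those of controls at 15h, and Abcg1 points of high-fat mice lie below those of controls at 9h.

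None of the 7 genes passed the test in any comparison. The test was limma on log2(FPKM + 1) with Benjamini-Hochberg adjustment over all genes, and genes with an adjusted p under 0.05 are said to be called. For diet averaged over the 3 times, 0 of 7 were called, where 1.98% of all genes were, with 0.204% higher and 1.78% lower on the high-fat diet. At an unadjusted p under 0.05 it was 2 of 7, Abca1 and Abcg1, where 14.1% of all genes lay under that threshold. At single times 0 of 7 were called as well, against 0% of all genes at 9h, 0.0605% at 15h and 0.00756% at 21h. Unadjusted p-values under 0.05 made up 7.22% of all genes at 9h, 11.6% at 15h and 5.37% at 21h, and limma-voom also called no gene at 9h. The libraries of the diets did not overlap for 2 of the 7 at 9h (Abcg1 and Apoe), 1 of 7 at 15h (Abca1) and 3 of 7 at 21h (Abca1, Abcg1 and Apoe). That was the case for 29.8% of all genes at 9h, 45.7% at 15h and 37.8% at 21h. No gene of the 7 was separated in 1 direction at all 3 times, as 5.14% of all genes were. The difference had the same sign at all 3 times for 3 of 7, with Abca1 higher and Nr1h2 and Mylip lower in high-fat mice, against 38.8% of all genes.

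**Figure D2:**
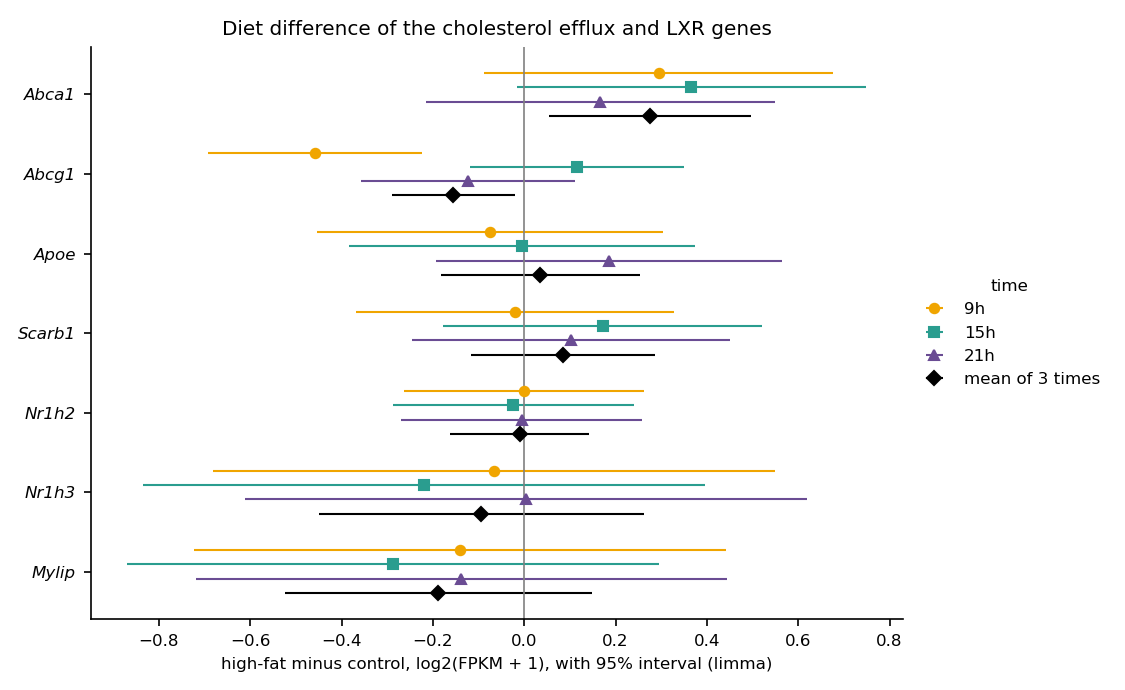
Difference between high-fat and control libraries on the log2(FPKM + 1) scale (x axis) for each of the 7 genes (y axis), at 9h, 15h and 21h and averaged over the 3 times, with 95% intervals from limma. The averaged interval lies above 0 for Abca1, from 0.05 to 0.50, and below 0 for Abcg1, from -0.29 to -0.02; the other 5 averaged intervals include 0.

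Neither receptor gene differed between the diets beyond the spread of the libraries. Nr1h2 encodes LXR beta, the form found in nearly all tissues (ENSMUSG00000060601, GRCm38 chromosome 7, 44549616 to 44553951, minus strand). It had 30.8 and 24.9 FPKM in HF 9h, 29.2 and 30.0 in HF 15h, and 28.3 and 30.3 in HF 21h libraries, against 25.7 and 29.9 in CTL 9h, 29.7 and 30.5 in CTL 15h, and 28.6 and 30.2 in CTL 21h libraries. The diets overlapped at every time, and the 2 libraries below 27 FPKM were one of each diet, both from 9h. The averaged difference was -0.01 ± 0.07 (log2, SE), with a 95% interval from -0.16 to 0.14 and an adjusted p of 0.967.

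Nr1h3 encodes LXR alpha, the form enriched in liver, fat and macrophages (ENSMUSG00000002108, chromosome 2, 91184061 to 91202834, minus strand). Its level rested on 105 to 219 reads per library, the fewest of the 7 genes. It had 4.26 and 3.43 FPKM in HF 9h, 2.72 and 4.67 in HF 15h, and 5.56 and 3.30 in HF 21h libraries, against 5.13 and 3.18 in CTL 9h, 4.01 and 4.70 in CTL 15h, and 4.89 and 3.76 in CTL 21h libraries. Both diets covered nearly the same range, and the lowest and highest libraries of all were both high-fat. The averaged difference was -0.09 ± 0.16, with a 95% interval from -0.45 to 0.26 and an adjusted p of 0.839. Counted over whole loci with introns, an annotated processed transcript on the same strand, Gm13783, overlaps 6873 bases of Nr1h3. Same-strand overlaps are also annotated for Scarb1 (Gm42633, 2764 bases) and Abcg1 (Gm25447, 128 bases). Reads of such an overlap cannot be assigned to one of the genes from the FPKM values.

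Nr1h2 was the more abundant receptor in 12 of 12 libraries. The ratio of Nr1h2 to Nr1h3 in FPKM was 5.09 to 10.7 with a median of 7.24 in high-fat libraries, against 5.01 to 9.41 with a median of 6.94 in control libraries.

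Abca1 encodes the transporter that passes cholesterol and phospholipid to lipid-poor apolipoproteins (ENSMUSG00000015243, chromosome 4, 53030787 to 53159895, minus strand). It was higher on average in high-fat mice without passing the test. It had 22.5 and 14.7 FPKM in HF 9h, 23.2 and 24.0 in HF 15h, and 20.4 and 17.8 in HF 21h libraries, against 13.7 and 15.7 in CTL 9h, 17.5 and 18.7 in CTL 15h, and 16.2 and 17.5 in CTL 21h libraries. Both high-fat libraries stood above both controls at 15h and, narrowly, at 21h; at 9h the diets overlapped, because HF 9h library 7 lay between the controls. A complete separation with high-fat above control was seen for 19% of all genes at 15h and 15.6% at 21h.

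Over all times Abca1 averaged 20.4 ± 3.59 FPKM in high-fat and 16.6 ± 1.74 FPKM in control libraries (SD, n = 6 each). The averaged log2 difference was 0.28 ± 0.10, with an unadjusted p of 0.0197 and an adjusted p of 0.248 from limma. Exchanging the diet labels among libraries of the same time, in an exact 2-sided permutation test, gave p = 0.0278, where 0.00926 is the smallest p the design allows. The difference was 0.29 ± 0.17 at 9h, 0.37 ± 0.17 at 15h and 0.17 ± 0.17 at 21h, so all 3 times had the same sign, as for 17.8% of all genes in that direction and 21% in the other. The value rests on the HF 9h pair: without library 7 it was 0.37 with an adjusted p of 0.0324, a call, and without library 6 it was 0.18 with an adjusted p of 0.199. Over all 12 single libraries left out, the adjusted p ran from 0.0324 to 0.561.

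The RefSeq promoter window of Abca1 is shown because LXR control of this gene is textbook knowledge. It runs from 250 bases before to 50 bases after the start (GRCm38.p6, chr4:53159846-53160145, minus strand). The first capitals mark an E-box, CACGTG, whose first base is at position -147 from the start. The second mark the stretch closest to a DR4 element, 2 copies of AGGTCA with 4 bases between them, with its first base at -67 and in the reverse direction.
Abca1 promoter: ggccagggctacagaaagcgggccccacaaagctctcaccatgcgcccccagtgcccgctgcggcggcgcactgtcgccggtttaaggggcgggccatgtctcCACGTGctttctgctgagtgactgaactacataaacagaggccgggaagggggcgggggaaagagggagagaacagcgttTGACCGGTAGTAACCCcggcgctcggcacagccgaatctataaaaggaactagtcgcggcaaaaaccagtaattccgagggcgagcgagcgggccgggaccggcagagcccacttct
The stretch differs from the DR4 at 3 of its 12 fixed letters, and 21.9% of the 32851 RefSeq promoter windows hold a match as close or closer on either strand. The E-box occurs in 7.15% of all windows. There are 8 windows for 5 of the 7 genes, and no window of Nr1h3, Apoe, Nr1h2 or Mylip holds the E-box or comes within 3 letters of the DR4. Bases outside these windows were not searched, so elements farther from the start would be missed.

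Abcg1 encodes the transporter that moves cholesterol towards mature high-density lipoprotein particles (ENSMUSG00000024030, chromosome 17, 31057675 to 31117988, plus strand). Unlike Abca1 it was lower on average in high-fat mice, and most of that came from 9h; it too did not pass the test. It had 8.38 and 7.92 FPKM in HF 9h, 8.84 and 10.3 in HF 15h, and 9.48 and 9.99 in HF 21h libraries, against 11.5 and 11.7 in CTL 9h, 8.99 and 8.52 in CTL 15h, and 10.0 and 11.4 in CTL 21h libraries. The high-fat libraries at 9h were the lowest of all 12 and the controls at 9h the highest. At 15h the diets overlapped, and at 21h high-fat lay just below control, at 9.99 against 10.04 FPKM for the nearest libraries. High-fat below control without overlap was seen for 14.8% of all genes at 9h and 22.2% at 21h.

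The Abcg1 difference at 9h was -0.46 ± 0.10 (log2, SE), with a 95% interval from -0.69 to -0.22, an unadjusted p of 0.00162 and an adjusted p of 0.238. At 15h it was 0.12 ± 0.10 and at 21h -0.12 ± 0.10. The interaction of diet and time had an unadjusted p of 0.0109, where 3.06% of all genes were under 0.05, and an adjusted p of 0.999; no gene of the table was called for it. Averaged over times, Abcg1 had 9.16 ± 0.941 FPKM in high-fat and 10.3 ± 1.36 FPKM in control libraries (SD, n = 6 each). That averaged difference was -0.16 ± 0.06, with an adjusted p of 0.288 and an exact permutation p of 0.157.

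The ratio of Abca1 to Abcg1 in FPKM combines these opposite differences. It was 1.79 to 2.69 with a median of 2.24 in high-fat libraries, against 1.20 to 2.19 with a median of 1.58 in control libraries. The ranges overlapped, with the 2 controls of 15h at 1.95 and 2.19.

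Apoe encodes apolipoprotein E, which takes up cholesterol released from cells and binds the LDL receptor family (ENSMUSG00000002985, chromosome 7, 19696109 to 19699188, minus strand). It had 1130 and 1125 FPKM in HF 9h, 937 and 1297 in HF 15h, and 1150 and 1116 in HF 21h libraries, against 1213 and 1162 in CTL 9h, 1146 and 1068 in CTL 15h, and 945 and 1049 in CTL 21h libraries. The lowest and the highest library of all were the 2 high-fat libraries of 15h. High-fat libraries lay below controls at 9h and above them at 21h, without overlap at either time, as for 14.8% of all genes in that direction at 9h and 15.6% at 21h. The averaged difference was 0.04 ± 0.10, with a 95% interval from -0.18 to 0.25 and an adjusted p of 0.910.

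Scarb1 encodes scavenger receptor class B type 1, the receptor for high-density lipoprotein (ENSMUSG00000037936, chromosome 5, 125277087 to 125341094, minus strand). It had 18.8 and 25.7 FPKM in HF 9h, 19.9 and 23.8 in HF 15h, and 22.4 and 20.9 in HF 21h libraries, against 21.8 and 22.9 in CTL 9h, 20.6 and 17.9 in CTL 15h, and 18.7 and 21.6 in CTL 21h libraries. The diets overlapped at every time. The averaged difference was 0.08 ± 0.09, with a 95% interval from -0.12 to 0.29 and an adjusted p of 0.723.

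Scarb1 varied between libraries together with genes of the lipid-secreting cells. Over the 12 libraries, the 3 genes with the highest Pearson r of log2(FPKM + 1) to Scarb1, among genes with a mean of at least 5 FPKM, were Krt79, a keratin of sebaceous and hair follicle ducts (r = 0.97), the wax synthase Awat1 (0.95) and the triglyceride lipase Pnpla2 (0.94). Within the 6 high-fat libraries the Krt79 value was 0.99 and within the 6 controls 0.97. The mean of the 8 meibocyte markers, of which Krt79 is one, had r = 0.86 with Scarb1. These values describe libraries that share tissue composition and were picked as the highest, so they carry no test.

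Mylip encodes the ubiquitin ligase also called IDOL, which marks the LDL receptor for breakdown (ENSMUSG00000038175, chromosome 13, 45389742 to 45412022, plus strand). It had 22.9 and 18.1 FPKM in HF 9h, 27.8 and 15.3 in HF 15h, and 28.3 and 19.4 in HF 21h libraries, against 21.9 and 23.3 in CTL 9h, 24.7 and 26.1 in CTL 15h, and 23.6 and 28.4 in CTL 21h libraries. High-fat libraries were spread widely, and 3 of them lay below every control. The averaged difference was -0.19 ± 0.15, with a 95% interval from -0.52 to 0.15 and an adjusted p of 0.615.

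Of the 3 libraries lowest in Mylip, 2 were the highest in immediate early genes, which are switched on within minutes of a stimulus or of handling. The summed level of 8 such genes was 715 FPKM in HF 15h library 6 and 935 FPKM in HF 21h library 6, where Mylip had 15.3 and 19.4 FPKM. It was 257 to 463 FPKM in the other high-fat libraries and 261 to 338 FPKM in controls. All 8 genes were higher on average in high-fat mice with a median log2 difference of 0.62, and none was called; the closest were Egr2 at 0.52 with an adjusted p of 0.101, Ier2 at 0.52 and Egr1 at 1.27 ± 0.49. Without those 2 libraries the averaged Mylip difference was 0.04 in place of -0.19. Each was the lower of its pair in Mylip, so leaving them out had to raise the high-fat mean. The part of the immediate early response in the Mylip level was not tested.

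**Figure D3:**
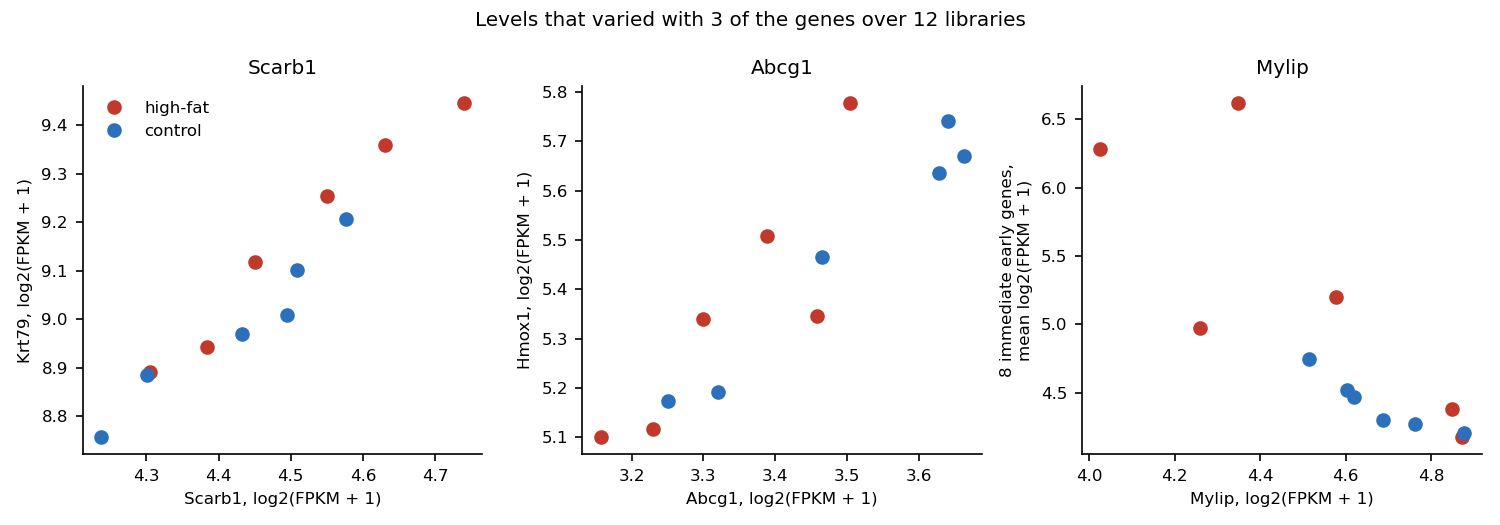
Each point is one of the 12 libraries, high-fat in red and control in blue, with axes in log2(FPKM + 1): Scarb1 against Krt79, Abcg1 against Hmox1, and Mylip against the mean of 8 immediate early genes. Krt79 and Hmox1 are higher where Scarb1 and Abcg1 are higher, with r of 0.97 and 0.90, and the 2 high-fat libraries with the highest immediate early mean are among the 3 lowest in Mylip.

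The other genes each had their own closest companions. Abca1 was closest to Nipbl, a cohesin loader (r = 0.94), Clcn4 (0.92) and Abraxas2 (0.92). Abcg1 was closest to the haem-degrading enzyme Hmox1 (0.90), the serine protease Prss22 (0.85) and the cornified envelope gene Sprr1a (0.83). Hmox1 shared the pattern of Abcg1 at 9h, with 33.7 and 33.3 FPKM in high-fat libraries against 52.5 and 49.9 FPKM in controls. Nr1h3 was closest to Ms4a6d, a membrane gene of macrophages (0.89), Tmem9 (0.85) and Bad (0.84), and had r = 0.70 with the mean of 11 macrophage markers and 0.67 with that of 6 fibroblast markers. Mylip was closest to Tcta (0.95), the Notch target Hes1 (0.93) and Zfp35 (0.93). Apoe was closest to Srprb (0.88), Ddb1 (0.88) and Rbms2 (0.83), and Nr1h2 to Zdhhc13 (0.92), Parp4 (0.92) and Shc1 (0.90). Leaving out the 2 libraries farthest from the median lowered the value to 0.51 for Rbms2, 0.67 for Zdhhc13 and 0.30 for Shc1. None of the 7 genes was among the closest companions of another, and the 21 pairs of the genes had r between -0.59, for Apoe and Mylip, and 0.61, for Abca1 and Nr1h2.

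Markers of immune cells differed with diet in the same libraries. The summed level of 7 T cell markers was 9.63 to 14.8 FPKM in high-fat and 18.3 to 33.7 FPKM in control libraries, and 4 of the 7 markers were called lower, where 1.78% of all genes were. Macrophage markers summed to 343 to 1104 FPKM in high-fat and 811 to 1436 FPKM in control libraries, with 10 of 11 negative at a median log2 difference of -0.52 and none called. No marker of either list was at 0 in all libraries. Above 1 FPKM in all libraries were 5 of the 7 T cell markers and 10 of the 11 macrophage markers. The lowest T cell marker, Cd3e, had a mean of 0.98 FPKM. A marker this low can pass the filter through the diet in which it is higher. Meibocyte markers summed to 3737 to 5691 FPKM in high-fat and 3512 to 4808 FPKM in control libraries, with 8 of 8 positive, a median of 0.21 and none called. By time the meibocyte median was 0.01 at 9h, 0.30 at 15h and 0.32 at 21h. The part of these differences in the levels of Abca1, Abcg1 and Nr1h3 was not tested.

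For time of day over both diets 0 of 7 genes were called, where 1.46% of all genes were; 23.6% of all genes had an unadjusted p under 0.05, and none of the 7 did. Abca1 came closest, with 16.7 ± 4.00 FPKM at 9h, 20.9 ± 3.23 at 15h and 18 ± 1.74 at 21h (n = 4 each, SD). Its F test had an unadjusted p of 0.0697 and an adjusted p of 0.248, and 15h stood 0.32 ± 0.12 above 9h on the log2 scale. Without HF 9h library 6, the highest library of that time, the adjusted p was 0.0165, a call, in a fit that called 2503 genes for time of day in place of 193. Abcg1 averaged 9.86 ± 1.98, 9.17 ± 0.804 and 10.2 ± 0.805 FPKM at the 3 times, and its spread at 9h is the distance between the diets. The remaining genes had adjusted p-values of 0.665 and above.

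**Figure D4:**
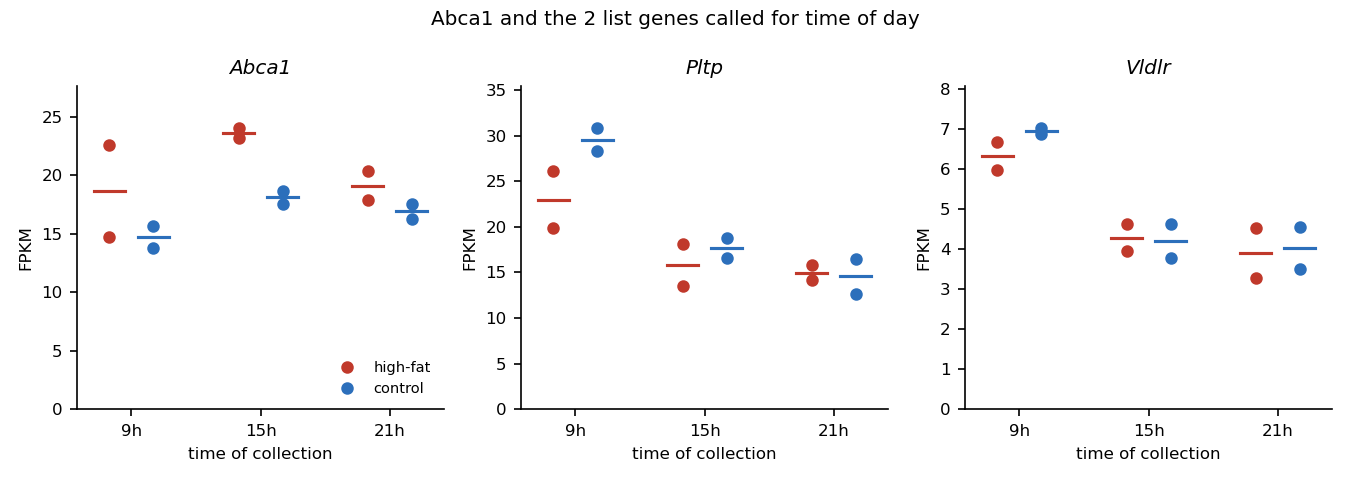
FPKM of Abca1, Pltp and Vldlr (y axes, from 0) at the 3 times of collection (x axis), with high-fat libraries in red left of control libraries in blue; points are libraries and bars are means of 2. Pltp and Vldlr are highest at 9h in both diets, and all 4 libraries of 9h lie above all 8 libraries of 15h and 21h. Both were chosen because they were called for time of day, so this separation is no further test.

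Lists of neighbouring genes place these values in the pathway. Of 20 other LXR targets 13 were tested and none was called for diet, with 8 of 13 positive and a median log2 difference of 0.02, against -0.01 for all genes tested. Within that list Pltp, which transfers phospholipid between lipoproteins, fell with time of day: 26.3 ± 4.71 FPKM at 9h, 16.8 ± 2.37 at 15h and 14.8 ± 1.77 at 21h (n = 4 each, SD), with an adjusted p of 0.0467 in limma's F test. Markers of skeletal muscle were also highest at 9h: the summed level of 7 was 4170 to 5342 FPKM in the 4 libraries of 9h and 2103 to 3659 FPKM in the 8 later ones, with no marker at 0. Of the 7 markers 2 were called for time of day, where 1.46% of all genes were. An unadjusted p under 0.05 was seen for 6 of the 7, against 23.6% of all genes. The part of the muscle markers in the Pltp level was not tested. Some LXR targets are named here after their values were seen, so they do not stand for the whole list, where 8 of 13 were positive. Srebf1, the regulator of fatty acid synthesis, had a difference of 0.17 ± 0.07 (adjusted p = 0.323), the phospholipid enzyme Lpcat3 0.19 ± 0.12 (0.547) and the desaturase Scd1 0.25 ± 0.15 (0.493). Lipoprotein lipase, Lpl, stood at 0.37 ± 0.10 (0.115) and transglutaminase Tgm2 at -0.46 ± 0.15 (0.212).

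Partners and ligand enzymes of the receptors gave no call for diet. All 13 retinoid X receptors and coregulators were tested, 9 of them positive with a median of 0.03. The closest was the corepressor Nrip1, with 5.87 ± 0.634 FPKM in high-fat and 4.84 ± 0.410 FPKM in control libraries (SD, n = 6 each) and an adjusted p of 0.178. Hdac3, the deacetylase of the corepressor complex, had a difference of 0.13 (0.345), and Rxrg -0.19 (0.452). Of 8 enzymes that make or break down oxysterols 6 were tested, with a median of 0.06. Among them Cyp7b1, which hydroxylates oxysterols for breakdown, had a difference of -0.41 ± 0.21 (adjusted p = 0.428) and the sulfotransferase Sult2b1 0.12. Ch25h, which makes an oxysterol ligand, had -0.19 at a mean under 1 FPKM in either diet. Its highest high-fat library had 0.951 FPKM and its highest control library 1.37 FPKM. Ch25h passed the filter only through control libraries, so the sign of its difference is tied to that filter.

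Cholesterol esterification and synthesis held the diet calls. Soat1, the enzyme that esterifies cholesterol for storage, rose: it had 107 and 128 FPKM in HF 9h, 134 and 179 in HF 15h, and 148 and 153 in HF 21h libraries, against 88.7 and 97.7 in CTL 9h, 120 and 114 in CTL 15h, and 101.1 and 108 in CTL 21h libraries. High-fat lay above control without overlap at all 3 times, where 5.14% of all genes were separated in 1 direction at all 3. Soat1 is named because it was called for diet in these libraries, so this separation is no further test. The averaged difference of Soat1 was 0.42 ± 0.08 with an adjusted p of 0.0408. It was the one call among 14 tested genes of trafficking and esters, whose median was 0.01. Of 20 genes of cholesterol synthesis 2 rose and none fell, with 19 of 20 positive and a median of 0.18. By time the list median was 0.02 at 9h, 0.26 at 15h and 0.30 at 21h, against 0.02, -0.03 and -0.01 for all genes tested. Of all genes tested 0.204% rose, and 6352 of 13228 were positive. Pmvk, phosphomevalonate kinase, averaged 168 ± 38.1 FPKM in high-fat and 104 ± 13.8 FPKM in control libraries (SD, n = 6 each), a difference of 0.67 ± 0.13 with an adjusted p of 0.0322. Both calls lie near the threshold: leaving out any 1 of 9 libraries ended them, with adjusted p-values up to 0.150 for Soat1 and 0.110 for Pmvk, and of the single libraries left out they held only without HF 9h library 6, HF 15h library 2 or HF 15h library 6. In all 13 of 18 alternatives ended the Soat1 call and 11 of 18 the Pmvk call. The replicate block took the Soat1 difference to 0.19 (adjusted p = 0.527) and the Pmvk difference to 0.45 (adjusted p = 0.383), and the Soat1 call was also lost without a filter, with centring and without both high-fat libraries numbered 6 at 15h and 21h, the Pmvk call also without a filter. Meibocyte markers, higher in the same libraries, are given above, and their part in these rises was not tested.

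Uptake, acceptors and related transporters were not called for diet. Of 11 genes of lipoprotein uptake 9 were tested, 4 positive, with a median of -0.05. The VLDL receptor, Vldlr, a target of Mylip together with the LDL receptor, was called for time of day at 6.64 ± 0.467 FPKM at 9h, 4.24 ± 0.445 at 15h and 3.97 ± 0.672 at 21h (n = 4 each, SD), with an adjusted p of 0.0482. The summed muscle markers given for Pltp were lower in the same 8 later libraries, and their part in the Vldlr level was not tested. The Pltp call was lost in 13 and the Vldlr call in 15 of 18 alternatives. Leaving out single libraries gave adjusted p-values up to 0.169 for Pltp and 0.180 for Vldlr, and the replicate block 0.232 for Pltp and 0.192 for Vldlr. Both calls were also lost without a filter, with centring and without both high-fat libraries numbered 6, and that of Vldlr with a pseudocount of 0.1. Among single libraries left out, Pltp held without HF 9h library 6, HF 15h library 2 or HF 15h library 6, and Vldlr without the first 2 of these. Of 10 acceptors and remodelling enzymes of high-density lipoprotein 3 were tested: endothelial lipase Lipg had a difference of 0.29 ± 0.11 (adjusted p = 0.281), Lcat -0.35 ± 0.16 (0.356) and the transporter Abca7 0.09 ± 0.06 (0.557). Among the other ABCA and ABCG transporters 10 of 12 were tested and all 10 were positive, with a median of 0.15 and none called. Abca12, which carries lipids for the skin barrier, was closest at 0.24 ± 0.08 (0.233), with Abca5 at 0.18 ± 0.09 (0.428) and Abca2 at 0.13 ± 0.07 (0.434).

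**Figure D5:**
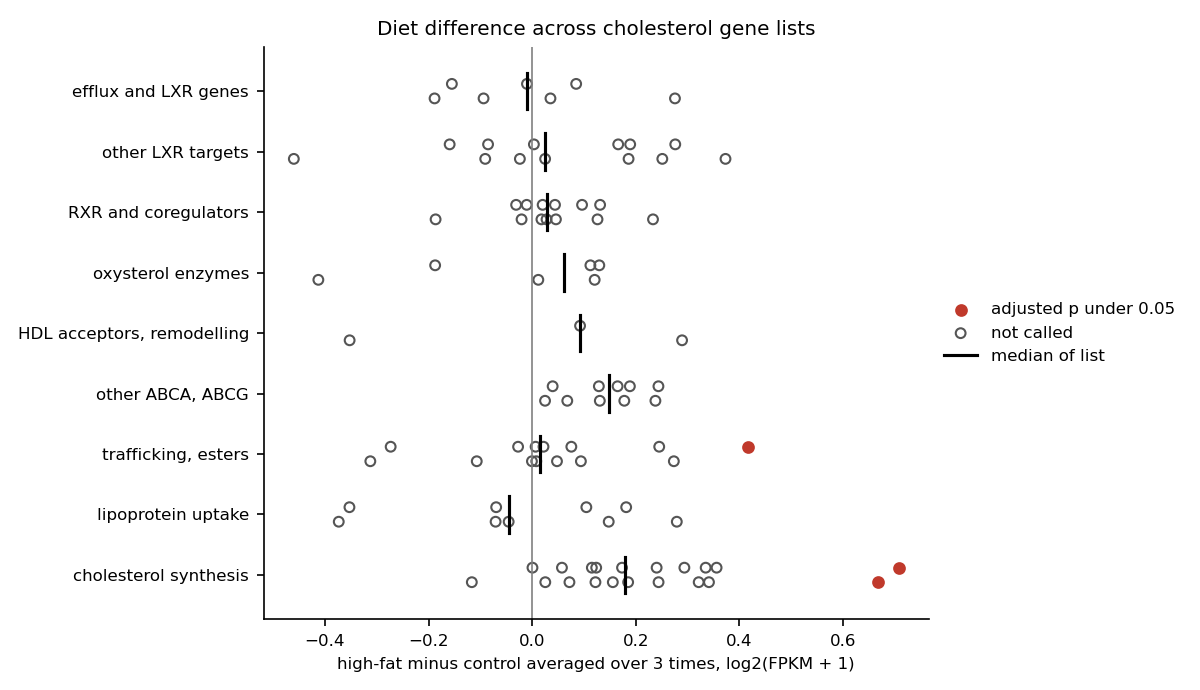
Averaged difference between high-fat and control libraries on the log2(FPKM + 1) scale (x axis) for each tested gene of 9 lists (y axis); filled points have an adjusted p under 0.05 from limma and vertical bars are list medians. The 3 filled points lie in trafficking and esters (Soat1) and in cholesterol synthesis, and no point of the 7 efflux and LXR genes is filled.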

How the data were processed

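RNA was taken with Trizol and made into libraries with an NEBNext Ultra II kit, per the labels' protocols. Build mm9 and the tools HISAT2 2.0.5, HTSeq 0.9.1 and DESeq 1.30.0 are listed, per the submitters' processing notes. For annotation, strand setting and the step to FPKM, details were not given in the sources used here. Deposited by the authors was 1 table of FPKM values for 21936 genes, and no column of it was left unmapped. Of its gene IDs, 21894 are in GENCODE mouse release 21 (GRCm38), the source of all gene coordinates, and with that release's exon lengths 98.1% of the nonzero values came out as whole reads within 0.02 reads, which gave the depths and the read numbers. Promoter windows are from RefSeq (GRCm38.p6).

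Values were tested as log2(FPKM + 1), a scale that understates the change of low genes, with limma 3.58.1 (mean-dependent prior) in R 4.3.3. A single model with 6 group means left 6 residual degrees of freedom, and Benjamini-Hochberg adjustment ran over 13228 genes. The single-gene permutation test ran through all 216 assignments. The genes and lists were chosen with earlier results of these data known. Of each list the text names genes called for diet or time of day, or else up to 3 with the smallest p, and the 3 most correlated genes for each member, leaving out symbols of gene models. One gene that the rule names is not reported here. Alternatives were a pseudocount of 0.1, no filter, median centring, limma-voom on recovered reads, fits to the libraries of 1 time, a replicate block, and leaving out single libraries or both high-fat libraries numbered 6 at 15h and 21h.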

Additional observations from a re-analysis of the deposited data

Results flagged for a closer look

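Abcg1 is listed for its interaction of diet and time, which had an unadjusted p of 0.0109 in limma and did not pass after adjustment over all genes, at 0.999. High-fat minus control was -0.46 at 9h, 0.12 at 15h and -0.12 at 21h on the log2(FPKM + 1) scale, with 2 libraries of each diet at each time. Of all genes tested, 3.06% had an interaction p under 0.05. Leaving out single libraries gave unadjusted p-values of 0.00661 to 0.0382, and leaving out both high-fat libraries numbered 6 at 15h and 21h gave 0.0577.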

How the results depend on the processing

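The 7 genes gave 42 results and 777 tests over the alternatives. Of these 2 became calls, both for Abca1 (adjusted p = 0.0324 for diet and 0.0165 for time of day, each without 1 of the HF 9h libraries), and 43 changed sign. The counts of genes called over the whole table moved much more. The replicate block fits a term for each library number beside the 6 group means, so it leaves fewer than 6 residual degrees of freedom. CTL 21h library 1 and HF 9h library 7 carry numbers of no other library, so the block fits them exactly. Number 6 occurs in high-fat libraries only, and only HF 15h library 2 and HF 21h library 3 share a number with a control library. The block terms therefore overlap with diet and can shift the diet differences themselves. Calls lost and signs changed with the block cannot be told apart from this overlap or from the loss of precision. For diet averaged over times the count of 262 was 0 with the replicate block, 236 with voom on recovered reads and 143 to 294 without single libraries. At 9h, where it was 0, it was 1 with the block, 47 with only that time's libraries, 41 without both high-fat libraries numbered 6, and 0 to 155 without single libraries. At 15h the count of 8 was 2 with a pseudocount of 0.1, 1 with no filter, 4 with centring, 0 with voom, with the block, with only that time's libraries and without both libraries numbered 6, and 0 to 72 without single libraries. At 21h the count of 1 was 0 with the pseudocount, no filter, voom, the block and only that time's libraries, 2 with centring, 6 without both libraries numbered 6, and 0 to 27 without single libraries. For time of day the count of 193 was 126 with the pseudocount, 7 with no filter, 26 with centring, 292 with voom, 0 with the block, 5 without both libraries numbered 6, and 1 to 2503 without single libraries. For the interaction it stayed at 0, also over single libraries left out. The cause was not tested.

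Several signs turned. With the replicate block the averaged differences were -0.14 for Apoe, -0.0719 for Scarb1, 0.27 for Mylip, -0.0284 for Ier2 and -0.30 for Egr1. The block gave 0.0818 for Nr1h2, 0.0583 for Nr1h3 and 0.69 for Mylip at 9h, 0.0513 for Mylip at 15h, and -0.0229 for Apoe, -0.0447 for Scarb1 and 0.0658 for Mylip at 21h. The r between deviations of same-numbered libraries was -0.50 to 0.29 over 12 pairs, 3 of them over 0.1. The highest r was between HF 15h library 6 and HF 21h library 6. For CTL 9h with CTL 15h it was -0.0827 under each shared number, so the pairs are not independent. These values cannot decide whether the numbers mark shared animals or batches, and the numbers were not taken as pairs. Centring gave 0.0133 for Nr1h2 on average, 0.0426 for Apoe and 0.0236 for Nr1h2 at 15h, and 0.0373 for Nr1h2 at 21h. Nr1h3 at 21h was -0.000507 with the pseudocount and -0.0218 with voom. Without both libraries numbered 6 the averages were -0.0356 for Apoe and 0.036 for Mylip, and Mylip was 0.12 at 15h and 0.12 at 21h. Without single libraries the averages ran from -0.0428 to 0.11 for Apoe, -0.0595 to 0.0394 for Nr1h2, -0.20 to 0.00761 for Nr1h3 and -0.11 to 0.0156 for Vldlr. At 9h they ran from -0.24 to 0.20 for Scarb1, -0.15 to 0.15 for Nr1h2, -0.34 to 0.21 for Nr1h3 and -0.30 to 0.019 for Mylip, at 15h from -0.24 to 0.23 for Apoe, -0.52 to 0.0841 for Nr1h3 and -0.70 to 0.12 for Mylip, and at 21h from -0.0541 to 0.0424 for Nr1h2, -0.30 to 0.31 for Nr1h3 and -0.40 to 0.12 for Mylip. Depth limits Nr1h3 most, at 105 to 219 reads per library.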
